A study of Mus musculus with 3 samples.

Results

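The Hand2- and Stmn2-positive cells of an E15.5 mouse embryo were 1353 segmented cells of 1 sagittal section, chosen by their own counts. A cell was taken when it held at least 10 counts over the panel genes, at least 2 counts of Hand2, at least 3 of Stmn2 and none of Tbx20. These gated cells were 0.691% of the 195915 cells kept in the section (exact Clopper-Pearson 95% interval 0.654% to 0.728%) and 3.48% (3.30% to 3.67%) of its 38864 cells with at least 3 counts of Stmn2. The study imaged 3 sections of wild-type whole embryos by MERFISH, which reads single RNA molecules in place through barcodes. The E9.5 sections, 2 in number, each came from an embryo of their own, the E15.5 section was the only one of its stage, and the series title names endothelial heterogeneity as its subject. With 1 section at E15.5 there is no replicate of these cells, so no test was run, and every interval given covers counting error within this section only.

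Hand2 is a basic helix-loop-helix transcription factor that sympathetic and enteric neurons need for their development, and that also acts in the heart, the limb buds and the branchial arches. Stmn2 encodes a microtubule-binding protein of growing neurons. Rgs4 encodes a protein that shortens signalling through G proteins and is a known gene of young sympathetic neurons. Sympathetic neuroblasts of the embryo are known to go on dividing after neuronal genes have been switched on. Tbx20, a T-box factor best known from the heart, was at 0 in every gated cell by the rule.

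The working name of these cells was autonomic-type neurons. Of a list of 36 genes of sympathetic and chromaffin cells, the panel held 3, Hand2, Rgs4 and Dlk1, so the enzymes of noradrenaline synthesis and the factors that define autonomic neurons could not be read. The cells are therefore called here by the genes of the rule. Rgs4, which the rule did not use, had a median of 3 counts per gated cell (quartiles 1 and 7) and of 0 in other cells with at least 3 counts of Stmn2 (quartiles 0 and 1). Its level was 30873 counts per 1000000 panel counts (CPM, summed over the cells of a group) against 9739 CPM. Rgs4 was not high in every gated cell, as the values by place show.

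The E15.5 section held 21227345 counts of 296 genes in kept cells, with a median of 84 counts per kept cell. Gated cells had a median of 152 counts and 54 genes, other cells with at least 3 counts of Stmn2 had 99 counts and 36 genes, and cells with at least 2 counts of Hand2 but no Stmn2 or Tbx20 had 163 counts and 58 genes. The 19 blank codes, which belong to no gene, averaged 131 CPM each in gated cells, and the highest stood at 530 CPM. Of the genes named below, Ndufa4l2, Nkx2-3, Higd1b, Scn7a, Slc1a3, Nts, Vtn and Nr2f2 lay under that highest blank code in gated cells.

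The values that chose the cells are a description only. Hand2 ranged from 2 to 41 counts per gated cell with a median of 6. There were 180 cells at 2 counts, 291 at 3 to 4, 493 at 5 to 9 and 389 at 10 or more. Stmn2 ranged from 3 to 73 counts with a median of 12. Among cells with at least 3 counts of Stmn2, 2626 of 38864 (6.76%) held 2 or more counts of Hand2, while a blank code reached 2 counts in a median of 0.0129% and at most 0.479% of the same cells. The same gate found 0 of 830 cells and 0 of 6334 cells in the E9.5 sections, with upper 95% limits of 0.443% and 0.0582%. There Hand2 reached 2 counts in 7.95% and 15.05% of cells, and Stmn2 reached 3 counts in 0 and 21 cells.

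Cells just outside the rule differed in how near they lay to gated cells. Cells with 2 counts of Hand2 had another gated cell within 30 µm in 90.0% of cases and 15599 CPM of Rgs4. Cells with 1 count of Hand2 that met the other limits numbered 679, lay within 30 µm of a gated cell in 22.7% of cases and had 11195 CPM of Rgs4. The 95 gated cells with 3 counts of Stmn2 had 5609 CPM of Rgs4 and 25904 CPM of Myh11, and the 151 cells with 2 counts of Stmn2 had 3288 and 40738 CPM. The Tbx20 limit removed 1273 cells, of which 559 held a single Tbx20 count. Of those 559 cells, 99.6% lay within 30 µm of a gated cell, and their Rgs4 level was 45579 CPM.

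Gated cells were packed into a few places. The median distance from a gated cell to the nearest other was 8.75 µm, and 96.5% had another within 30 µm. Among the 20 nearest neighbours of a gated cell, 33.0% were gated, against 0.282% among the neighbours of cells with Stmn2 and under 2 counts of Hand2. Linking gated cells at 30 µm gave 15 dense groups of at least 10 cells, which held 1190 of them (88.0%, 86.1% to 89.6%), and 163 cells lay in no group. The groups are numbered here by size. Most cells with Stmn2 but no Hand2 formed 1 large linked area, which held 89.0% of the 35487 such cells. Gated cells lay a median of 702 µm from that area, and 5 of them lay within 30 µm of it.

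**Figure D1:**
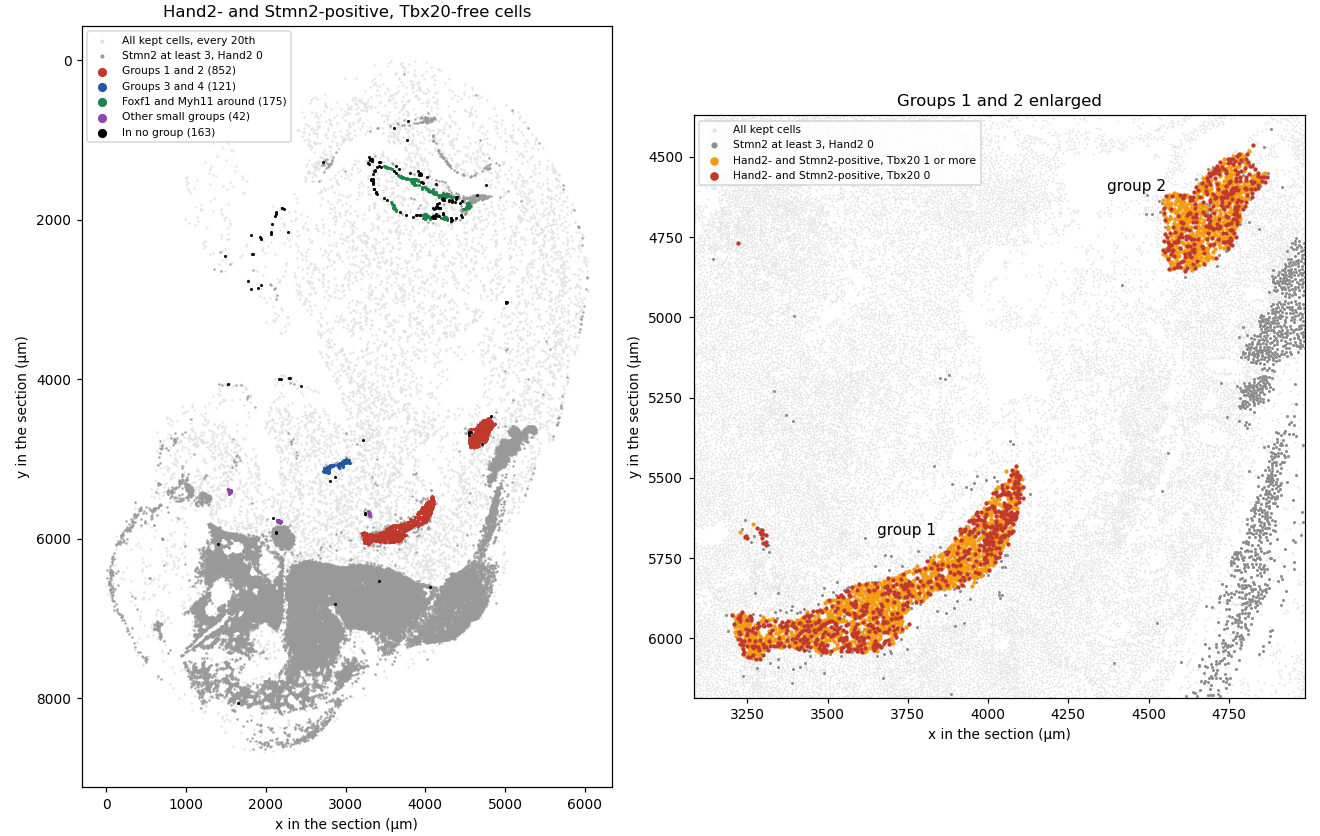
Positions of cells in the E15.5 section (left) and around groups 1 and 2 (right), with x and y in µm and smaller y drawn at the top. Points are single cells, coloured by dense group on the left and by Tbx20 count on the right; groups 1 and 2 hold 852 of the 1353 gated cells, and cells with a Tbx20 count lie mixed with them.

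Group 1 was a curved band of 593 cells, 1030 by 321 µm, and group 2 an oval of 259 cells, 433 by 256 µm, with centres 1531 µm apart. In group 1, 90.0% of all cells with at least 3 counts of Stmn2 also held 2 or more counts of Hand2, and in group 2 the share was 90.8%. Groups 3 and 4 held 64 and 57 cells in small patches with centres 210 µm apart. A further 8 groups, of 10 to 46 cells and 175 in all, lay in tissue where the cells without Stmn2 within 50 µm held at least 1000 CPM of both Foxf1, a factor of gut mesoderm, and Myh11, the smooth muscle myosin. They lay 3393 to 4194 µm from the large Stmn2 area. On the map these groups and many of the 163 ungrouped cells lie along thin curved lines. The last 3 groups, with 17, 15 and 10 cells, had no such surroundings. The division by surroundings was made after the data had been seen.

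Compared with the other 37511 cells with at least 3 counts of Stmn2, gated cells had more Rgs4, more cell cycle RNA and less of the genes of central neurons. A gene was called past the limit at a ratio of 2-fold or more either way, with a 95% interval that left out 1 and at least 100 counts over both groups, the 3 rule genes left aside. Of 293 genes, 74 were higher (25.3%) and 52 lower (17.7%), and these shares are the background for the lists that follow. The median log2 ratio over all 293 genes was 0.22. Counts per cell volume gave 109 higher and 29 lower with a median of 0.58, and counts with the mean blank code subtracted gave 116 and 73 with a median of 0.41. The comparison group also held the 1273 cells that differed from the gate only in having Tbx20, so ratios over the 35487 cells with Hand2 at 0 are given beside some of the main ones.

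Rgs4 was 3.17-fold higher (95% interval 3.09 to 3.25) than in the other Stmn2 cells and 4.46-fold higher than in those with Hand2 at 0. Against only the other Stmn2 cells within 200 µm of a gated cell, which include the Tbx20-positive ones, the ratio of Rgs4 was 1.53, below the limit. Dlk1, an imprinted gene of a membrane protein found in chromaffin and other endocrine precursors, was 2.17-fold higher, at 14035 against 6470 CPM, and 1.30-fold against the cells within 200 µm. It was lower than in Hand2 cells without Stmn2, which had 34199 CPM. Both tested members of the sympathetic and chromaffin list were thus past the limit against all other Stmn2 cells, and neither passed it within 200 µm. Rgs4 was also a marker given with the working name. In groups 1 and 2 Dlk1 stood at 12770 CPM, below the 35451 CPM of cells without Stmn2 within 50 µm. Dlk1 was below such cells at every other place described below, too. Of the 3 tested members of the enteric neuron list, Ndufa4l2 was higher, at 478 against 117 CPM, and Hoxa5 and Meis2 were lower. Against the cells within 200 µm Hoxa5 was at 0.784-fold, within the limit.

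Most genes of cell division were higher. Of the 14 panel members of the proliferation list, 12 were higher and none lower, with a median log2 ratio of 2.20; Dut and H2afz were at 1.72-fold and 1.29-fold. Top2a, the topoisomerase of dividing cells, stood at 10889 against 1576 CPM (6.91-fold, 6.60 to 7.23), and Birc5, a protein of the dividing chromosomes, at 1638 against 270 CPM (6.06-fold, 5.39 to 6.81). Ube2c, Hmmr, Aurka, Pclaf, Cenpf, Cdk1 and Cenpe were 4.51- to 6.63-fold higher. Ccnd1, the cyclin D1 that drives entry into the cell cycle, was 8.95-fold higher (8.74 to 9.17), at 40715 against 4547 CPM, 27.6-fold higher than in Stmn2 cells with Hand2 at 0, and 2.51-fold higher than in the other Stmn2 cells within 200 µm. Proliferation genes took 3.41% of all counts in gated cells, 0.777% in the other Stmn2 cells and 3.25% in Hand2 cells without Stmn2. Of the 5 panel genes of cell cycle exit, Cdkn1a was lower, 2.15-fold, and the other four were within the limit.

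All 3 panel genes of the central neuron list were lower. Reln, a secreted guidance protein of brain neurons, was 13.2-fold lower (11.5 to 15.1), at 921 against 12115 CPM. Meis2, a homeodomain factor, was 7.13-fold lower and Nr2f2, an orphan nuclear receptor, 4.58-fold lower. Pcdh17, a protocadherin of brain circuits, was 8.83-fold lower. Of the 4 panel genes of the general neuronal list, Rgs4 was higher, as given above, and Tmem108 stayed within the limit. Tubb2b, a beta-tubulin of young neurons, was 6.02-fold lower (5.77 to 6.29) and Scn3a, a sodium channel, 2.61-fold lower. Both were still 11.7-fold and 14.7-fold above Hand2 cells without Stmn2. Cpe, which trims peptide hormones, Cd200, a membrane protein, and Nts, the neurotensin gene, were 4.80-, 4.60- and 4.87-fold lower.

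Of the 4 panel genes on the peripheral glia list, Adgrg6 and Egfl8 were higher, 3.59-fold and 3.85-fold, and Scn7a was lower, 4.60-fold. Fabp7, a fatty acid binding protein of glial precursors, had 5727 CPM against 7642 CPM, within the limit, and was lower past it against the cells within 200 µm, by -1.05 on the log2 scale. Slc1a3, the glutamate transporter of radial glia, was 6.18-fold lower, whereas Vim, the intermediate filament vimentin, was 3.09-fold higher (3.03 to 3.16). Scn7a and Slc1a3 lay under the highest blank code. In groups 1 and 2 Adgrg6 stood at 1891 CPM, against 2311 CPM in cells without Stmn2 within 50 µm. Adgrg6 was also below such cells in groups 3 and 4 and in the other small groups. It was above them in the groups with Foxf1 and Myh11 around, at 2947 against 1025 CPM, and in ungrouped cells.

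Visceral mesoderm and smooth muscle genes were also above the other Stmn2 cells, with 4 of 5 panel members higher and Hoxa5 4.60-fold lower. Myh11 was 28.0-fold higher (26.1 to 30.1), at 8143 against 291 CPM, Acta2, smooth muscle actin, 20.9-fold, Foxf1 4.88-fold and Nkx2-3, a factor of gut and spleen mesoderm, 2.78-fold. Myh11, Acta2, Foxf1 and Nkx2-3 were lower than in Hand2 cells without Stmn2, where Myh11 stood at 17815 CPM. Against the Stmn2 cells within 200 µm the log2 ratio of Nkx2-3 was 0.80, below the limit. In the gated cells of groups 1 to 4 alone the ratios were 0.936 for Myh11, 2.01 for Acta2 and 1.17 for Foxf1. Acta2 was at 271 CPM in groups 1 and 2 and 316 CPM in groups 3 and 4. Both values lay under the highest blank codes of those cells, 465 and 631 CPM. H19, an imprinted RNA of fetal mesoderm, was 5.33-fold above the other Stmn2 cells, at 57418 CPM, and below the 152794 CPM of Hand2 cells without Stmn2. Of 12 mesenchyme genes 5 were higher, among them the collagen gene Col1a2 at 2.81-fold, and Crabp1 was lower. Of 8 mural genes Kcnj8, a channel of pericytes, Acta2 and Myh11 were higher and Vtn was lower. Of 7 endothelial genes none was higher and Cldn5 was lower, and of 7 macrophage genes Mrc1 was higher, at 756 against 342 CPM.

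**Figure D2:**
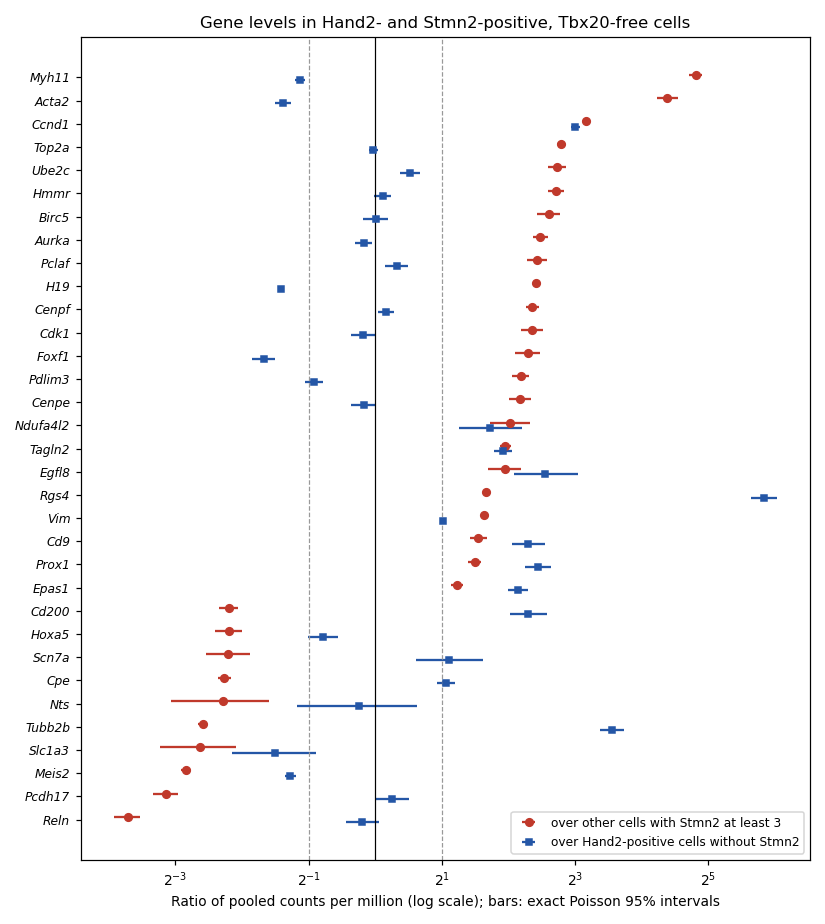
Ratio of pooled CPM in the 1353 gated cells over the other cells with at least 3 counts of Stmn2 (circles) and over Hand2-positive cells without Stmn2 or Tbx20 (squares), on a log scale with exact Poisson 95% intervals; dashed lines mark 2-fold. Ccnd1 is at 8.95-fold and 7.997-fold, while Myh11, Acta2, Foxf1 and H19 are high in the first and low in the second.

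Gated cells met a Hand2 limit and a Stmn2 limit, so they were also set against Hand2 cells that lacked Stmn2. Against the 2174 Hand2 cells without Stmn2 or Tbx20, 36 of 265 genes were higher (13.6%) and 70 lower (26.4%). There were 9 genes of 265 (3.4%) higher than in both comparison groups, namely Ccnd1, Ndufa4l2, Tagln2, Egfl8, Rgs4, Vim, Cd9, Prox1 and Epas1. Rgs4 was 56.8-fold above the Hand2 cells without Stmn2 (49.6 to 65.3) and Ccnd1 7.997-fold (7.62 to 8.39). Prox1, a homeodomain factor of lymphatic endothelium that also acts in neural precursors, was 2.81-fold and 5.44-fold higher. Epas1, the oxygen-regulated factor HIF-2 alpha, was 2.33-fold and 4.41-fold higher. Tagln2, an actin-binding protein, and Cd9, a tetraspanin, were 3.87- and 2.92-fold above the Stmn2 cells and 3.78- and 4.91-fold above the Hand2 cells. Against only the other Stmn2 cells within 200 µm, 7 of the 9 fell below the limit: Prox1 and Egfl8 were each at 1.87-fold, Tagln2 at 1.73-fold, Rgs4 at 1.53-fold, Cd9 at 1.51-fold, Vim at 1.37-fold and Epas1 at 1.19-fold. Ccnd1 and Ndufa4l2, at 2.51-fold and 2.07-fold, stayed above 2-fold, but Ndufa4l2 lay under the highest blank code in gated cells, 530 CPM. The cells within 200 µm included Hand2- and Stmn2-positive cells with a Tbx20 count, of which 1270 of 1273 lay within 30 µm of a gated cell. These ratios are therefore not against other kinds of neuron alone. Leaving out every cell with another centre within 8 µm gave 5 genes higher than in both.

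Of the 8 panel genes on the oxygen sensing and chromaffin list, Epas1, Rgs4, Ndufa4l2 and Dlk1 were above the other Stmn2 cells and none was lower, with a median log2 ratio of 1.02. Gnas, the stimulatory G protein subunit, was 1.39-fold, Rgs5, a G protein regulator best known from pericytes, 1.503-fold, Higd1b 1.497-fold and Cdkn1c, an imprinted cell cycle inhibitor, 1.90-fold. These 4 stayed within the limit. Rgs4 and Dlk1 are also the 2 tested members of the sympathetic and chromaffin list. Ndufa4l2 lay under the highest blank code in gated cells, 530 CPM. Against the Stmn2 cells within 200 µm Epas1 was at 1.19-fold, Rgs4 at 1.53-fold, Dlk1 at 1.30-fold and Ndufa4l2 at 2.07-fold. Against Hand2 cells without Stmn2, 4 of the 8 were higher and 2 lower, beside 13.6% and 26.4% of all 265 tested genes.

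Gated cells were not of 1 kind across the section. The 852 cells of groups 1 and 2 had 38047 CPM of Rgs4, 66804 CPM of Ccnd1, 6339 CPM of Prox1 and 8315 CPM of Epas1. The cells without Stmn2 within 50 µm of them had 2416, 4780, 911 and 3288 CPM. Thinned to 60 counts per cell, which left out 63 cells, 90.1% of cells in groups 1 and 2 (87.8% to 92.1%) kept a Ccnd1 count and 81.5% (78.6% to 84.1%) a Rgs4 count. In the surrounding cells, with a median of 91 counts against 137, the thinned shares were 22.7% and 13.3%, and 200 shallower cells were left out. At their own depth 96.7% and 94.2% of the cells of groups 1 and 2 held a count of Ccnd1 and Rgs4, against 33.6% and 22.5% around. H19 stood at 24657 CPM inside and 187871 CPM around, so the cells of these groups held less of it than their neighbours. Myh11 was at 294 CPM inside and Foxf1 at 310 CPM, both under their highest blank code of 465 CPM.

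Groups 3 and 4 had high Rgs4 but low Ccnd1, Prox1, Epas1 and proliferation genes. Of 142 genes with enough counts, 24 were higher (16.9%) and 30 lower (21.1%) than in groups 1 and 2. Rgs4 stood at 74756 CPM, 1427 CPM around, and 91.6% of cells (85.1% to 95.9%) kept a Rgs4 count at 60 counts. Ccnd1 was at 2249 CPM, 29.7-fold below groups 1 and 2 (22.9 to 39.3) and below the 5068 CPM around it. Prox1 and Epas1 were 16.1-fold and 15.1-fold lower, at 394 and 552 CPM, under the highest blank code of these cells, 631 CPM. Zic1, a zinc finger factor of dorsal neural and mesodermal tissue, was the leading gene of each of the groups 3 and 4. It stood at 5207 CPM against 287 CPM in groups 1 and 2 (18.2-fold, 12.5 to 26.9) and 512 CPM around. Itm2a, a membrane protein, and H19 were 7.38-fold and 5.91-fold higher than in groups 1 and 2; Itm2a was at 45923 CPM and H19 at 128968 CPM around them, against 25563 and 145686 CPM inside. Of 12 tested proliferation genes 9 were lower and none higher than in groups 1 and 2, and the list took 1.39% of counts against 4.21%. Myh11 and Foxf1 lay under the highest blank code here too, at 158 and 394 CPM. Tubb2b stood 7.71-fold above the surroundings against 7.81-fold in groups 1 and 2, while its level was 5641 against 9795 CPM.

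The 175 cells with Foxf1 and Myh11 around them had little Rgs4. They had 3245 CPM of it, 11.7-fold less than groups 1 and 2 (9.78 to 14.2), and 18.1% of cells (12.5% to 24.8%) kept a Rgs4 count at 60 counts, against 1.96% of the cells around. Of 158 genes 51 were higher (32.3%) and 14 lower (8.86%) than in groups 1 and 2. Myh11 was 90.1-fold higher, Acta2 33.4-fold and Foxf1 14.3-fold, at 26526, 9058 and 4435 CPM. The cells without Stmn2 around them held more of each, 43905, 17928 and 8747 CPM. Tubb2b was at 9518 CPM inside and 655 CPM around, Fabp7 at 5516 and 697 CPM, and Ccnd1 at 11276 and 1923 CPM. These 3 genes were above their surroundings and the 3 smooth muscle and gut mesoderm genes were below. Both tested enteric list genes, Hoxa5 and Meis2, were higher than in groups 1 and 2, at 1920 against 310 CPM and 10897 against 4711 CPM. The cells around held 2187 and 16142 CPM. Hoxa5 is also on the visceral mesoderm and smooth muscle list and Meis2 on the central neuron list, so neither is particular to enteric neurons. Epas1, at 838 CPM against 2388 CPM around, was lower inside. Group 11, of 16 cells, had the highest levels of Rgs4, Ccnd1 and Epas1 among these groups, at 9691, 29073 and 4615 CPM. These levels rest on 21, 63 and 10 counts. Group 11 had 1846 CPM of Myh11 and 461 CPM of Foxf1, from 4 and 1 counts, and no count of Acta2. In the other groups of this kind Rgs4 ranged from 1123 to 7830 CPM. The part of neighbouring muscle RNA in the levels of these 175 cells was not tested.

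The 42 cells of the 3 remaining small groups had 11573 CPM of Rgs4, 17431 CPM of Tubb2b and 118303 CPM of Gnas. The pooled Rgs4 level stood for none of the 3, with 27917 CPM in group 14, of 10 cells, and 5960 and 5941 CPM in groups 9 and 12. Epas1 was not counted in any of the 42, and 0 of the 39 cells deep enough to thin allows a share of cells with a count of up to 9.03% (Clopper-Pearson). The 163 ungrouped cells had 26766 CPM of Myh11 and 3117 CPM of Rgs4, near the levels of the cells with Foxf1 and Myh11 around them.

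**Figure D3:**
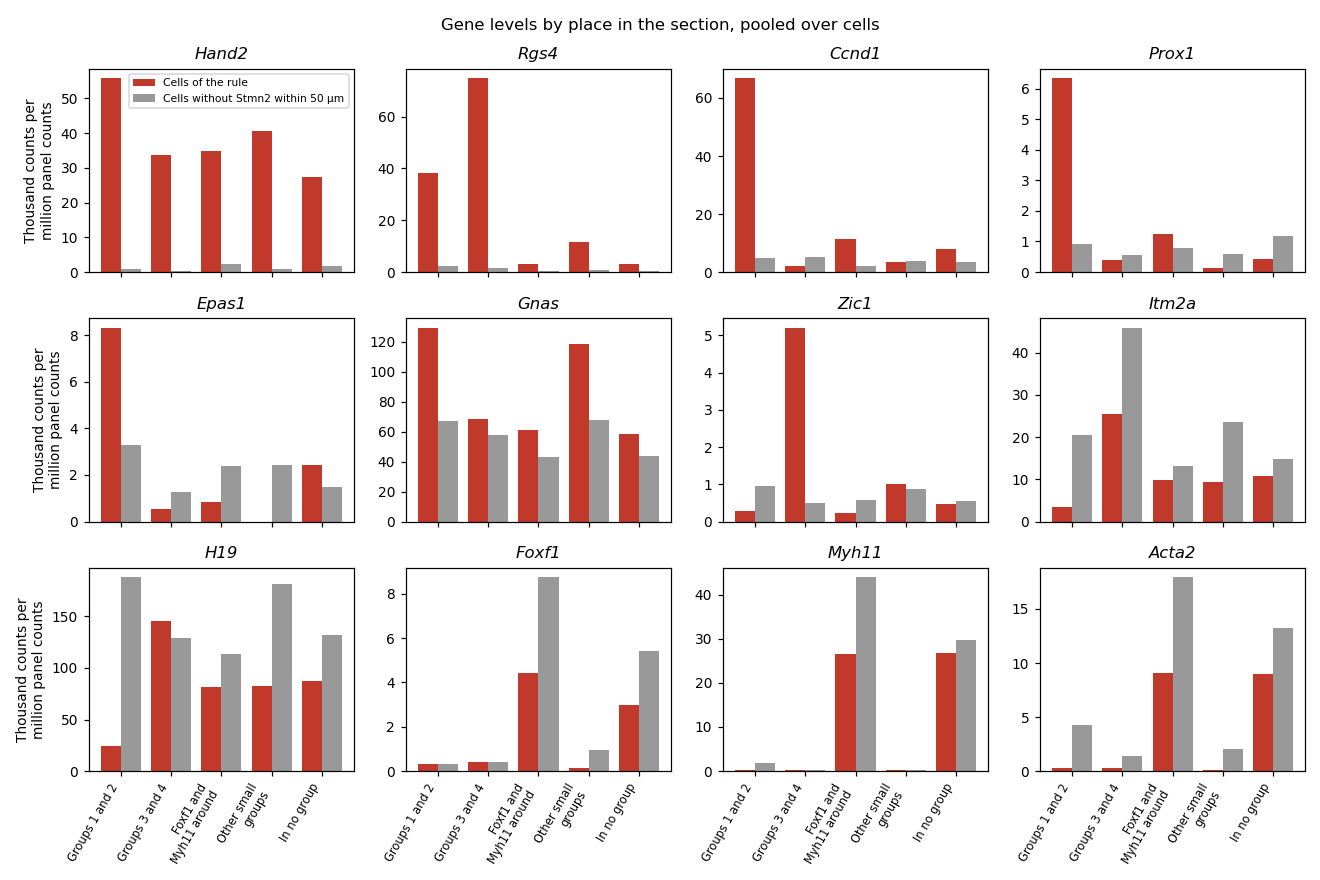
Pooled level of 12 genes, in CPM divided by 1000, in gated cells by place (left bar of each pair) and in cells without Stmn2 and with under 2 counts of Hand2 within 50 µm of them (right bar). Ccnd1, Prox1 and Epas1 are high in groups 1 and 2, Zic1 in groups 3 and 4, and Foxf1, Myh11 and Acta2 where the surroundings hold more of them; the gap in Hand2 was set by the choice of cells.

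Groups 1 and 2 differed past the limit in few genes. Of 123 genes, 3 were higher (2.44%) and 3 lower (2.44%) in group 1. Pdlim3, a muscle LIM protein, was 2.59-fold higher (1.70 to 4.09), at 1684 against 651 CPM. Around the groups Pdlim3 stood at 5817 and 316 CPM and Acta2 at 4898 and 1186 CPM, and the part of neighbouring RNA was not tested. Eln, elastin, was 2.22-fold higher (1.31 to 3.98) and Rgs5 2.11-fold (1.65 to 2.73). Stra6, a retinol receptor, was 3.36-fold lower (2.59 to 4.36), the chemokine Cxcl12 2.82-fold lower (2.06 to 3.88) and the endothelin receptor Ednra 2.19-fold lower (1.45 to 3.29). All 12 tested proliferation genes were above 1-fold in group 1, by a median log2 ratio of 0.54, and none reached the limit. Over the 123 genes 52.8% were above 1-fold and the median log2 ratio was 0.02.

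Levels differed along the length of group 1. Its 593 gated and 828 Tbx20-positive cells were ordered along the long axis from small to large x and split into 3 equal parts. Epas1 had 7067, 8242 and 14716 CPM from the first part to the last, Dlk1 6179, 9467 and 17602 CPM, Rgs5 2776, 3428 and 6305 CPM, and Prox1 3457, 3879 and 6790 CPM. In the last part, which is the end that curves towards smaller y, they were 1.92-fold (1.78 to 2.07), 2.25-fold (2.09 to 2.42), 2.03-fold (1.80 to 2.29) and 1.85-fold (1.65 to 2.07) above the first 2 parts pooled. Split into 10 equal parts, Epas1 was highest at 19425 CPM and Rgs5 at 9690 CPM in the part before the last, and Prox1 and Ccnd1 were highest in the last, at 9410 and 93856 CPM. Gnas, at 1.02-fold, had an interval that held 1, Rgs4 was at 0.894-fold and Vim at 0.750-fold.

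The same order was seen in gated cells alone, with 5674, 7049 and 13643 CPM of Epas1 and 4423, 6217 and 9754 CPM of Prox1, and in Tbx20-positive cells alone, with 7911, 8630 and 15365 CPM of Epas1. The cells without Stmn2 around the last of the 3 parts had 1139 CPM of Epas1, 997 CPM of Rgs5 and 854 CPM of Prox1, less than the cells of the group. Dlk1 was higher around than inside, with 31384, 39524 and 52931 CPM around the 3 parts, in the same order as inside. The endothelial list together took 2831, 3062 and 2472 CPM of the 3 parts, and the mural list without Rgs5 took 2414, 2471 and 2082 CPM; the part of other cell types in these levels was not tested. Top2a had 8121, 8618 and 13261 CPM, and median counts per cell were 178.5, 180 and 160. Group 2 showed no such order for Epas1, with 8372, 8806 and 7761 CPM. The genes of this comparison were picked after the data had been seen. The 3 parts of group 1 lay on 4, 6 and 5 imaging fields, and the part of imaging field in these levels was not tested.

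**Figure D4:**
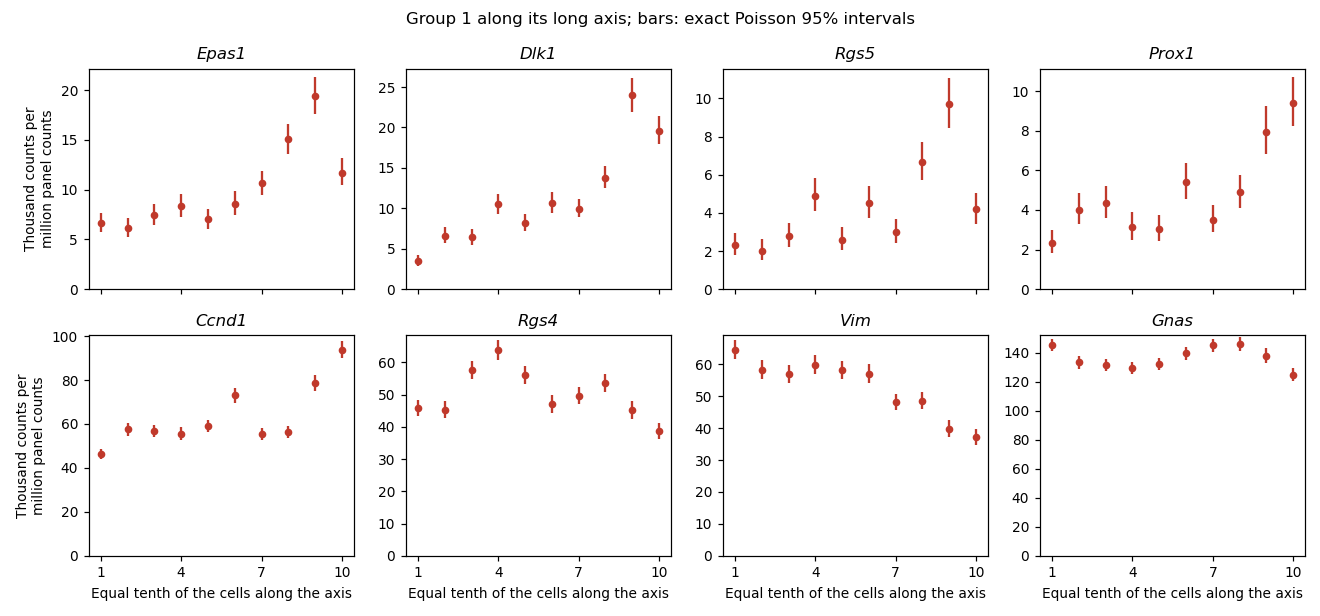
Pooled level of 8 genes in CPM divided by 1000 in all Hand2- and Stmn2-positive cells of group 1, in 10 equal parts of the cells along its long axis, with exact Poisson 95% intervals. Epas1, Dlk1 and Rgs5 are highest in the part before the last, Prox1 in the last, and Rgs5 falls back to 4186 CPM in the last.

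The Tbx20 limit cut through groups 1 and 2. Of 1273 Tbx20-positive cells that met the Hand2 and Stmn2 limits, 1217 (95.6%) lay within 30 µm of a gated cell of groups 1 and 2. They made up 58.3% of the Hand2- and Stmn2-positive cells of group 1 and 60.03% of group 2, but 4 of 68 cells in group 3 and 0 of 57 in group 4. Tbx20 stood at 6904 CPM in all Hand2- and Stmn2-positive cells of groups 1 and 2 and at 211 CPM in the cells around. Taken 1 at a time, the blank codes were above 0 in a median of 1.98% and at most 8.68% of Hand2- and Stmn2-positive cells, against 48.5% for Tbx20. Thinned to 60 counts, 32.0% of the cells of groups 1 and 2 (29.98% to 34.1%) kept a Tbx20 count, 1.63% (0.198% to 5.75%) of groups 3 and 4, and 6.67% (3.60% to 11.1%) of the groups with Foxf1 and Myh11 around. Without group 11, where 19 of 35 cells held Tbx20, the last share was 4.32% (1.75% to 8.70%).

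Cells of groups 1 and 2 with and without a Tbx20 count differed in depth. Those without had a median of 137 counts, 13 of Stmn2 and 7 of Hand2, and those with it had 208, 28 and 11. Of 198 genes, 5 were higher in the cells without Tbx20 (2.53%) and 0 lower (0%). The 5 were Klf4, a zinc finger factor, at 2.64-fold (1.78 to 3.94), and the cell division genes Cdk1, Aurka, Cdc20 and Cenpf, at 2.06- to 2.07-fold. All 13 tested genes of the proliferation list were above 1-fold, with a median log2 ratio of 0.71 against 0.19 over the 198 genes, of which 67.7% were above 1-fold. Rgs4 was at 0.724-fold and Prox1 at 1.90-fold, within the limit. Taken apart, group 1 had 5 of 171 genes higher (2.92%) and group 2 had 10 of 117 (8.55%), with 0 lower in each, and all proliferation genes tested there, 12 and 10, lay above 1-fold, as did 67.8% and 59.8% of all genes tested there. A shallow cell can hold Tbx20 RNA and show none, so cells without a count are not shown to lack it.

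**Figure D5:**
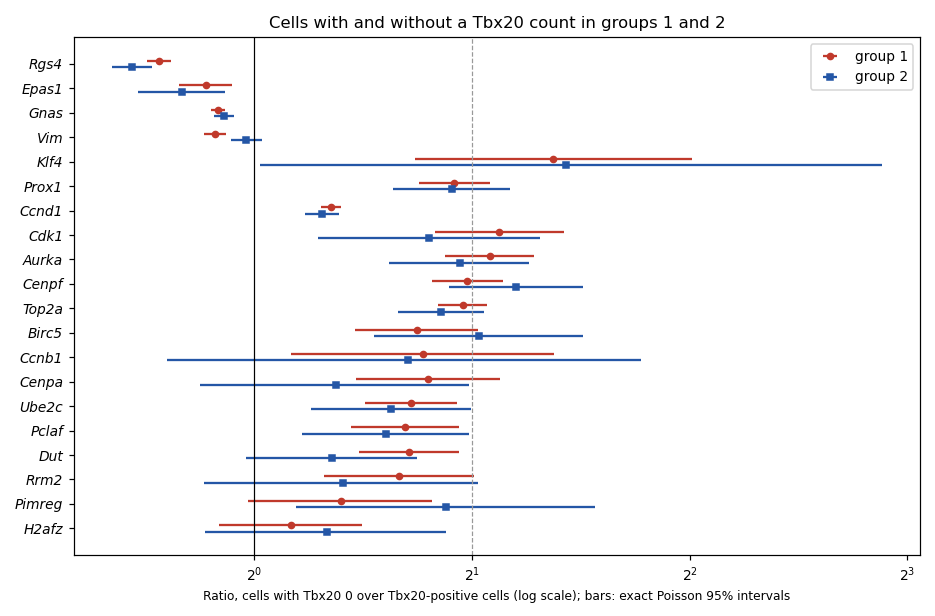
Ratio of pooled CPM in cells of group 1 (circles) and group 2 (squares) with no Tbx20 count over those with at least 1, on a log scale with exact Poisson 95% intervals. Of the 13 proliferation genes drawn, from H2afz to Cdk1, the 12 tested in group 1 and the 10 tested in group 2 lie above 1, and Rgs4 lies below 1. The rest had under 100 counts in that group.

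Within the gated cells of groups 1 and 2, levels of other genes differed with the share of cell cycle RNA. In 267 of 852 cells (31.3%) proliferation genes made up at least 5% of the counts, in 477 under 5% and in 108 none was counted. From the cells with none to the cells with most, with proliferation genes left out of the total, Rgs4 had 48996, 42349 and 31205 CPM. Ccnd1 had 55099, 61004 and 92918 CPM, Prox1 3184, 4896 and 11357 CPM and Dlk1 5837, 11572 and 19430 CPM. Epas1 had 8756, 9059 and 7850 CPM and did not follow this order, unlike Dlk1 and Prox1. Median counts were 92, 148 and 138, and a share of 0 is more frequent in shallow cells. Over the 7 imaging fields with at least 20 gated cells of group 1, Ccnd1 ranged from 53159 to 96702 CPM and Prox1 from 2837 to 12250 CPM. Epas1 ranged from 4816 to 16403 CPM and Rgs4 from 30626 to 49965 CPM.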

How the data were processed

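The deposited tables hold whole-number counts of decoded RNA molecules per segmented cell and gene, with no normalization, and cell positions and volumes; the headers give no unit for positions, which were read as µm. Per the labels, hybridisation, imaging, segmentation and decoding were run on the Vizgen MERSCOPE platform; for their settings, not given in the sources used here, no value is assumed. In the submitters' processing notes there are Scanpy and Seurat, without a version or a role. Cells with at least 10 counts over the 296 panel genes were kept, and the 19 blank codes were used as background only. Segmentation sets what a cell is, so no doublet caller was run.

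Counts were summed over the cells of a group and given per 1000000 panel counts (CPM). Ratios have exact 95% Poisson intervals and shares have Clopper-Pearson intervals. Cells are not replicates, so no p-value is given. Dense groups came from DBSCAN on cell centres (link 30 µm, at least 10 cells). For shares across depths, each cell was thinned to 60 counts and shallower cells were left out. The genes named are those with the largest ratios past the limit, those higher than in both comparison groups, and members of the lists. The gated cells, the gene lists and the settings were chosen with earlier results of these data known. The code was tested on simulated data. Python 3.11.15, NumPy 2.4.6, pandas 2.3.3, SciPy 1.17.1, scikit-learn 1.9.0 and Matplotlib 3.10.9 were used.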

Additional observations from a re-analysis of the deposited data

How the results depend on the processing

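Without the Tbx20 condition the gate took 2626 cells instead of 1353. The share of gated cells in dense groups, 88.0%, was 93.7% without that condition, 78.9% and 93.1% with links of 20 and 50 µm, and 75.3% with at least 30 cells a group. The 74 genes higher than in other Stmn2 cells became 116 with the mean blank count subtracted, 36 against Stmn2 cells within 200 µm and 40 at a 3-fold limit. The 52 lower genes became 29 per cell volume, 28 within 200 µm and 21 at 3-fold. These are counts of genes and not shares of the genes tested under each setting. The median log2 ratio was 0.03 within 200 µm and 0.22 in the main setting. The 9 genes higher than in both groups became 15 without the Tbx20 condition, 14 per cell volume, and 5 each at 3-fold and without cells that have another centre within 8 µm. The log2 ratio of Myh11 turned to -0.10 with gated cells of groups 1 to 4 only, a setting chosen after seeing the data along with leaving out the groups with Foxf1 and Myh11 around and leaving out the Tbx20-positive comparison cells. Of the other values of named genes under these settings, 315 moved beyond their counting interval without a change of sign and 340 did not. The cause was not tested, beyond the change in cells or limit that each setting makes. No paired analysis was possible because the E15.5 stage has 1 section, and no replicate could be left out for the same reason. Genes near the level of the highest blank code are limited by depth.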
